A study of Mus musculus with 9 samples.

Results

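The 10 genes followed here act in tumor necrosis factor (TNF) signaling, and were read in testes of Tmem203 null mice. They were the ligand genes Tnfsf10 and Tnfsf12, the receptor genes Tnfrsf1a, Tnfrsf1b, Fas, Tnfrsf10b, Tnfrsf12a and Tnfrsf21, and the adaptor genes Traf1 and Traf2. All probe sets annotated to a single one of these genes were taken, whatever their values, which gave 16 probe sets of 9 genes, out of 34945 such probe sets of 18193 genes on the arrays. The remaining member, Tnfsf12, had 2 probe sets, both annotated to at least 2 genes, and is not analysed here. Total RNA was compared between 4 testis samples of wild type (WT) and 5 of Tmem203 null mice, labelled C57BL/6J, at 24 weeks of age and without treatment. The null allele is germline and lacks the start codon of Tmem203 with part of the leader before it, and the selection cassette had been removed by crossing to a Flpe deleter line. Each sample had its own Affymetrix array, which carries 1 or more probe sets for a gene, and every level given is a log2 signal after Robust Multichip Average (RMA) normalization. The study harvested left and right testes separately, and the labels do not say whether every array is another animal. Both testes of 1 mouse may thus be among the samples. The p-values rest on the spread among the 9 samples taken as independent, which may be partly technical or within an animal.

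Ligands of the TNF superfamily are membrane proteins or are shed from the membrane, and act as trimers on receptors that cluster on the target cell. Receptors with a death domain, such as those for TNF, FAS ligand and TRAIL, can recruit adaptors that activate caspase-8. Receptors with or without that domain also bind TNF receptor associated factors (TRAFs), which lead to NF-kappa-B and to the kinase JNK. In the testis, FAS and its ligand and TNF are known for their part in germ cell death and in the exchange between germ cells and Sertoli cells.

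The largest change among the members was a rise of Tnfrsf12a, the receptor of the ligand TWEAK, which was 2.41-fold higher in null testes on one probe set and 2.09-fold higher on the other. Traf1, an adaptor that NF-kappa-B is known to induce, was 1.69-fold lower on one probe set, while its other one read near the detection level. Tnfrsf10b, the death receptor of TRAIL, was 1.71-fold lower on 1 of 2, and Tnfrsf21, which encodes death receptor 6, was 1.70-fold higher on one probe set and 1.58-fold lower on the other. Tnfrsf1a, the TNF receptor with a death domain, rose by less than 1.5-fold. Tnfrsf1b, Fas, Tnfsf10 and Traf2 did not pass the test on any probe set.

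Of the 16 probe sets, 14 reached a log2 signal of 5 on at least 1 array, and these are called detected; both others belong to Tnfsf10. In the limma fit over all 45037 probe sets, 4 of the 14 passed an adjusted p of 0.05 as higher in null testes and 3 as lower. Across all detected single-gene probe sets the shares were 5.70% higher and 4.23% lower. With a change of at least 1.5-fold required as well, 2 of the 9 genes were called higher and 3 lower, with Tnfrsf21 in both counts, where 1.44% of all detected genes were called higher and 1.18% lower. The median log2 fold change of the 14 probe sets was 0.03, beside -0.01 over all detected single-gene probe sets. In 7 of the 14 the 2 genotypes did not overlap, which held for 15.6% of all detected single-gene probe sets. Tnfrsf12a, Tnfrsf10b and Traf1 had been listed as changed by the study on these arrays, so the counts are a description of the chosen genes.

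**Figure D1:**
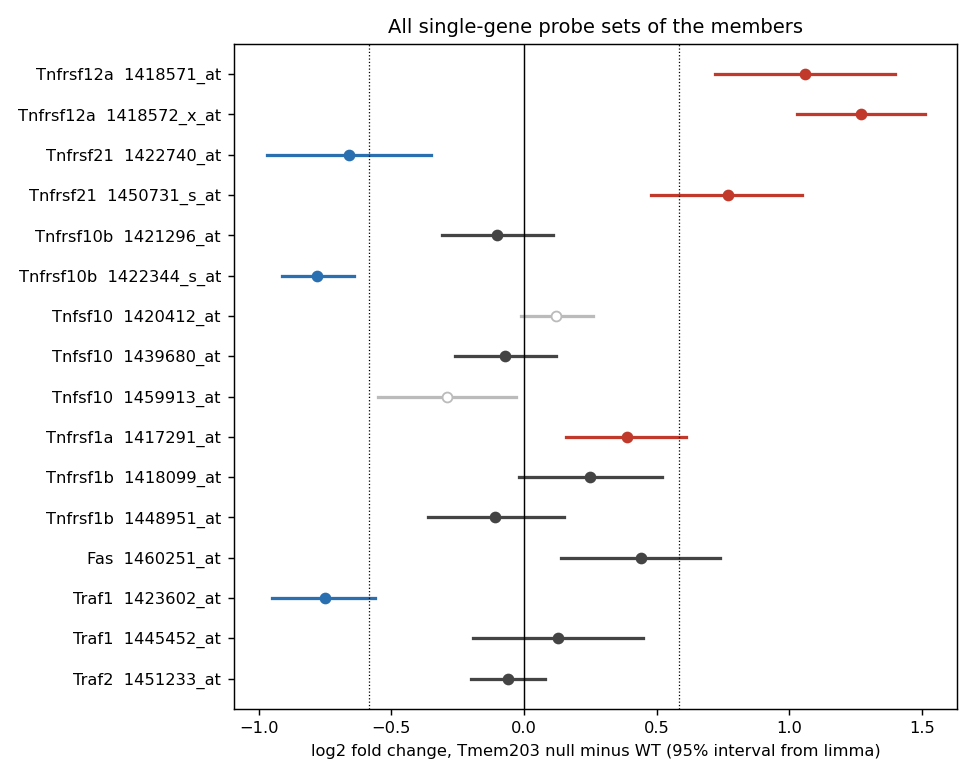
Log2 fold change on the x axis, null relative to WT, with its 95% interval from limma for each of the 16 probe sets (rows). Red and blue mark higher and lower probe sets past an adjusted p of 0.05, dark grey those that did not pass, open light grey the 2 that were not detected, and the dotted lines 1.5-fold; both Tnfrsf12a probe sets lie beyond the right line, while the probe sets of Tnfrsf21 lie on opposite sides of 0.

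The stretches before the transcription starts of Tnfrsf12a, Tnfrsf21 and Traf1 are shown because these genes were called and carry the rise, the split and the fall described here. They are the 250 bases upstream of the start in RefSeq, build GRCm38.p6, written 5′ to 3′ on the strand of the gene. Capitals mark matches on either strand to the NFAT core GGAAA, a kappa-B pattern (GGG and CC with any 5 bases between them), the AP-1 site TGANTCA, the CRE core TGACG and the GC box GGGCGG. The first and the fourth are letters bound by NFAT and CREB. Calcineurin acts on NFAT and on CRTC1, a coactivator of CREB. The second and the third belong to NF-kappa-B and to AP-1, which JNK activates.
Tnfrsf12a, chr17:23677450-23677699, minus strand: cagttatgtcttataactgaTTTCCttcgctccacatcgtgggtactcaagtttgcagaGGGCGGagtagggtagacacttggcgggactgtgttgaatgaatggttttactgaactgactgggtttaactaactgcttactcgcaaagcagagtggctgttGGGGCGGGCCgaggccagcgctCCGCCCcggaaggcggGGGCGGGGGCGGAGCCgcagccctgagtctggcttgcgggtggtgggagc
Tnfrsf21, chr17:43016305-43016554, plus strand: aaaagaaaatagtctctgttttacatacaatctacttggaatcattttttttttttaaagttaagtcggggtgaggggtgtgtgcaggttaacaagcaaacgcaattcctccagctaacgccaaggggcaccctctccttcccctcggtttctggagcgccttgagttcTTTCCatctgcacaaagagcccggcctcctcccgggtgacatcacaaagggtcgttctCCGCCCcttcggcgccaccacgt
Traf1, chr2:34961773-34962022, minus strand: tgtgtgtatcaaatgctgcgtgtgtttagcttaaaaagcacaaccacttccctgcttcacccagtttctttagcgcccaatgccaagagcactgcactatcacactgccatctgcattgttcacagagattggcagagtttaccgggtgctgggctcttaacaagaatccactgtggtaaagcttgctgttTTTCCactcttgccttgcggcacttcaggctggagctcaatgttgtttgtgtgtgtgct
The promoter of Tnfrsf12a is rich in GC boxes, with 5 matches, and its 2 kappa-B matches both overlap GC boxes. Tnfrsf21 has 1 GC box and no kappa-B match, and Traf1 has neither in this window; each of these 3 genes has 1 NFAT core. In all, 8 members had a promoter in the table, of which 5 held an NFAT core, 5 a kappa-B pattern, 4 a GC box, 2 a CRE core and 1, that of Fas, an AP-1 site. Over all 32851 promoter windows of the same length the shares were 55.6% for the NFAT core, 45.8% for kappa-B, 32.7% for the GC box, 17.8% for the CRE core and 6.75% for AP-1. A match is a run of letters and no measure of binding.

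Across the array set, the medians lay between 6.96 and 7.05 and the correlations between any 2 arrays between 0.993 and 0.998, with WT replicate 3 at no more than 0.996 with any other. Tmem203 itself was at 9.67, 9.91, 9.93 and 9.71 in the WT samples and between 9.06 and 9.13 in the null samples, lower in every null sample, although where its probe set lies beside the replaced stretch was not determined. Markers of germ cells dominated the signal, as the tissue label says, and none of 8 markers of round and 8 of elongating spermatids passed. The elongating markers averaged 14.24 to 14.27 in WT and 14.22 to 14.27 in null samples, the highest of the marker lists. Whether a loss could be read at such a level was not tested. By flow cytometry of DNA content, the study reports a large reduction of condensed haploid cells in null testes at a later age. Of 8 spermatogonial markers 2 were higher in null testes (Gfra1 and Kit), each counted by its probe set of smallest p. The list mean, taken over probe sets of highest mean, was 9.94 to 10.13 in WT and 10.12 to 10.22 in null samples. Gfra1 rose by 1.27 on the probe set counted. Its probe set in the list mean had -0.17 and another 0.24, and neither of these passed. Of 8 spermatocyte markers 1 was lower (Dmc1), and the list mean, 11.86 to 11.96 in WT and 11.77 to 11.85 in null samples, did not overlap. Dmc1 had -0.33 on the probe set counted and 0.10 on its other one, which did not pass. Of 9 endothelial markers 1 was higher (Robo4) and 2 were lower (Egfl7 and Vwf). The list means, 6.83 to 6.98 against 7.04 to 7.24, did not overlap either, but include Robo4, which rose by 1.84. Egfl7 and Vwf had -0.58 and -0.37 on the probe sets in these means, and the 6 others 0.02 to 0.30. Means without Robo4 were not taken. Of 10 detected markers of Sertoli cells 7 were higher in null testes, with a mean of 10.58 to 10.78 in WT and 10.87 to 11.05 in null samples. Of 7 markers of Leydig cells 4 were higher (11.03 to 11.51 against 11.43 to 11.70). Among them, Cyp11a1 had 0.50 on the probe set counted and 0.34 on a brighter one, and Nr5a1 had 0.37 and 0.04. The second value of each did not pass. Of 10 markers of macrophages 2 were higher (8.34 to 8.77 against 8.68 to 8.92), while none of 9 lymphocyte markers passed. None of 6 peritubular and smooth muscle markers passed either, with a median log2 fold change of -0.15. Their means, 9.22 to 9.73 in WT and 9.33 to 9.60 in null samples, overlapped. Null replicate 1 had the highest mean of the Sertoli list (11.05) and of the macrophage list (8.92). It was also at the top of the endothelial (7.24) and spermatogonial (10.22) lists. In the lists of spermatocytes (11.77), round spermatids (12.90) and elongating spermatids (14.22) it was at the bottom. The 3′ to 5′ difference of the Gapdh control probe sets was lower in null samples, at 0.85 ± 0.04 (SD, n = 5) against 0.93 ± 0.01 (SD, n = 4; exact permutation test, two-sided p = 0.0159, the smallest that 126 arrangements give), and for beta-actin the difference between genotypes was -0.03 (p = 0.365, same exact test). In RNA of whole testis, fewer cells of a type and less RNA per cell cannot be told apart, and the part of these shifts in the values of the members was not tested.

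Tnfsf10 encodes TRAIL, the ligand of Tnfrsf10b. Its one detected probe set, 1439680_at, stood just above the detection level, with 5.10, 5.05, 5.44 and 5.07 in WT and 5.14, 4.95, 5.18, 5.12 and 5.07 in null samples. The genotypes overlapped, with a log2 fold change of -0.07 (95% interval -0.26 to 0.12, adjusted p = 0.655 from limma). Both other probe sets of the gene stayed under 5 on all 9 arrays.

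Tnfrsf1a encodes TNF receptor 1, which carries a death domain and is present on most cells. Its log2 signal on 1417291_at was 9.39, 9.42, 9.63 and 9.21 in WT and 10.04, 9.71, 9.68, 9.66 and 9.89 in null samples. The genotypes did not overlap, though null replicate 4 and WT replicate 3 were only 0.03 apart. The log2 fold change was 0.39 ± 0.10 (SE, limma adjusted p = 0.0474), or 1.31-fold, short of 1.5-fold. The call is not firm, since median centring of the arrays took the adjusted p to 0.0645 and it was lost without any single array other than WT replicate 3 (0.0615 to 0.109).

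Tnfrsf1b encodes TNF receptor 2, which has no death domain and signals through TRAFs. On 1418099_at the WT samples lay between 6.23 and 6.66 and the null samples between 6.46 and 7.05, and on 1448951_at between 6.10 and 6.64 and between 6.02 and 6.46. The genotypes overlapped on both. The log2 fold changes were 0.25 (95% interval -0.02 to 0.52) and -0.11 (95% interval -0.36 to 0.15), with adjusted p of 0.256 and 0.612 from limma.

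Fas encodes the receptor of FAS ligand. On its single probe set, 1460251_at, the signal was 6.10, 6.59, 6.29 and 5.93 in WT and 6.87, 6.48, 6.78, 6.48 and 6.74 in null samples. WT replicate 2 lay above null replicates 2 and 4, and the other WT samples lay below all null samples. The log2 fold change of 0.44 (95% interval 0.14 to 0.74) had an adjusted p of 0.0760 from limma and so did not pass. Without WT replicate 2 it was 0.56, with an adjusted p of 0.0306. With array weights it also passed, at 0.52 with an adjusted p of 0.0327.

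Tnfrsf10b, which mice use as the receptor that carries the death signal of TRAIL, gave unequal readings on its 2 probe sets. On 1422344_s_at the signal was 9.33, 9.29, 9.23 and 9.41 in WT and 8.52, 8.63, 8.61, 8.47 and 8.47 in null samples. All null samples lay below all WT samples, with little spread in either group, and the log2 fold change was -0.78 ± 0.06 (SE, limma adjusted p = 9.38e-05). On 1421296_at the signal was 7.37, 7.24, 7.77 and 7.35 in WT and 7.35, 7.28, 7.35, 7.35 and 7.35 in null samples. Here the genotypes overlapped, and the log2 fold change of -0.10 (95% interval -0.31 to 0.11, adjusted p = 0.575) became 0.01 without WT replicate 3. The suffix _s_at marks a probe set whose probes match several transcripts by the design of the manufacturer. The place of either probe set along the gene is not known here, although the annotation gives both the same source transcript.

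Tnfrsf12a is a small receptor without a death domain that binds TRAFs directly and is known to be induced by growth factors and tissue injury. On 1418572_x_at its signal was 6.92, 6.93, 6.92 and 7.0 in WT and 8.60, 7.98, 8.18, 8.07 and 8.23 in null samples. On 1418571_at it was 7.21, 7.61, 7.79 and 7.14 in WT and 8.84, 8.34, 8.44, 8.29 and 8.61 in null samples. All null samples lay above all WT samples on both, and null replicate 1 was the highest on both. The log2 fold changes were 1.27 ± 0.11 (SE, limma adjusted p = 1.87e-04) and 1.06 ± 0.15 (SE, adjusted p = 0.00311). Without null replicate 1, which was also at the top or bottom of most marker lists, they were 1.17 and 0.98, and both passed. The suffix _x_at marks probes that may also bind other sequences, and 1418571_at does not carry it.

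Tnfrsf21 encodes death receptor 6, which has a death domain. Its probe sets moved in opposite directions, and it was the one gene of the arrays called in both. On 1450731_s_at the signal was 8.89, 8.37, 8.43 and 8.83 in WT and 9.53, 9.16, 9.41, 9.29 and 9.59 in null samples. All null samples were higher there, with a log2 fold change of 0.77 ± 0.13 (SE, limma adjusted p = 0.00640). On 1422740_at the signal was 6.82, 7.03, 7.02 and 7.63 in WT and 6.51, 6.53, 6.53, 6.32 and 6.42 in null samples. All null samples were lower there, and WT replicate 4 stood apart above the other WT samples. The log2 fold change was -0.66 ± 0.14 (SE, adjusted p = 0.0187), and without WT replicate 4 it was -0.49 (adjusted p = 0.00749), which is under 1.5-fold.

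**Figure D2:**
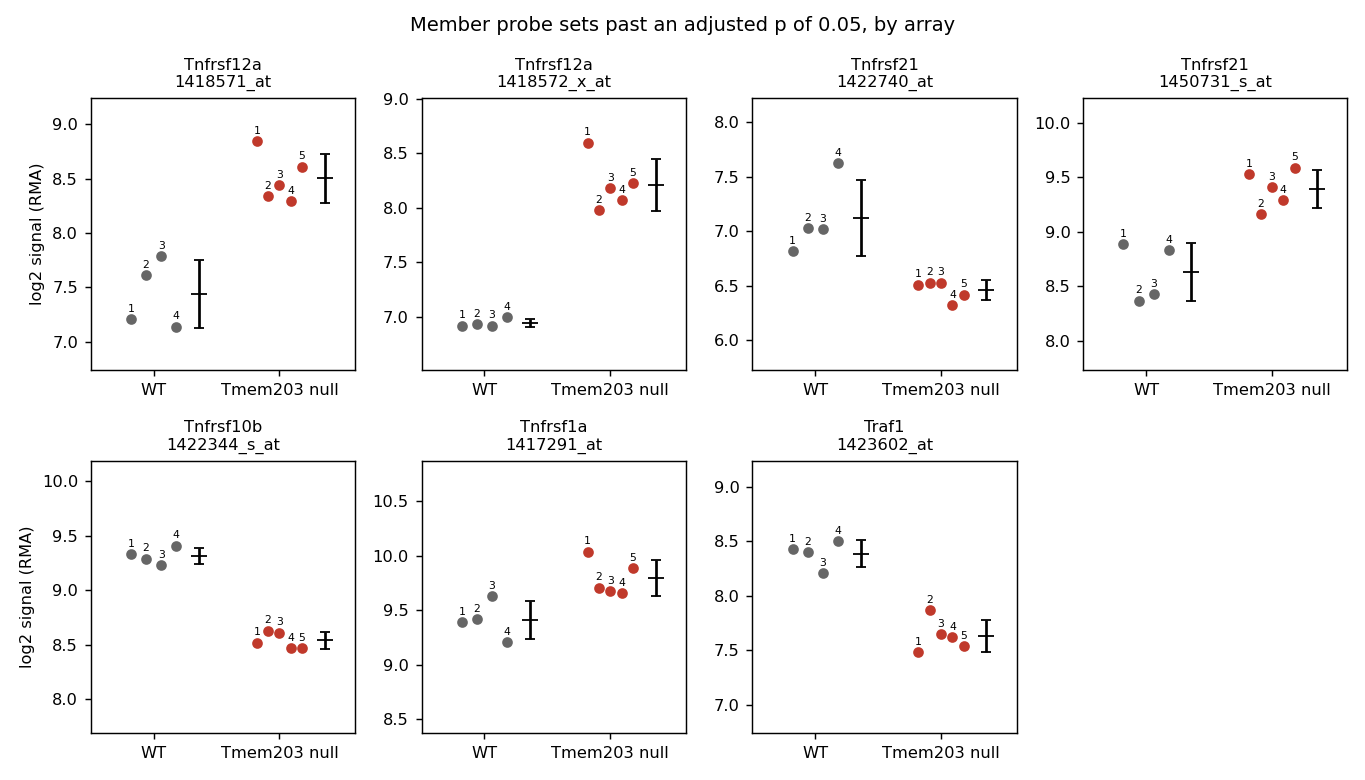
Log2 signal (RMA, y axis, with panels of equal span) of the 7 member probe sets past an adjusted p of 0.05, in each WT (grey) and Tmem203 null (red) sample; small numbers are replicate numbers, and bars give mean and SD. These probe sets were picked for passing the test, and in each of them the genotypes do not overlap, with the narrowest gap, 0.03, for Tnfrsf1a.

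Traf1 encodes a TRAF without the RING domain of the others, and forms complexes with TRAF2 below TNF receptor 2. On 1423602_at its signal was 8.43, 8.40, 8.21 and 8.50 in WT and 7.48, 7.87, 7.65, 7.62 and 7.54 in null samples. All null samples lay below all WT samples, and the log2 fold change was -0.75 ± 0.09 (SE, limma adjusted p = 9.36e-04). Its second probe set, 1445452_at, lay between 4.49 and 5.08 in WT and between 4.80 and 5.41 in null samples, near the detection level, with a log2 fold change of 0.13 (95% interval -0.19 to 0.45, adjusted p = 0.638).
Traf2, which joins several of these receptors to NF-kappa-B and JNK, was at 8.46, 8.45, 8.32 and 8.22 in WT and 8.36, 8.32, 8.22, 8.27 and 8.32 in null samples. The genotypes overlapped, and the log2 fold change was -0.06 (95% interval -0.20 to 0.08, adjusted p = 0.597 from limma). Traf1 and Traf2 both lie on chromosome 2, that of the targeted gene. Between Traf2 and Tmem203 there are 20 protein-coding genes in the RefSeq order, and for Traf1 they were not counted. Whether this position has a part in the values was not tested. The interval of Traf2 leaves room for a change of at most 1.15-fold.

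For the 5 members with more than 1 detected probe set, the difference between the probe sets was taken within each array. The disagreement of the Tnfrsf21 and Tnfrsf10b probe sets was known when these genes were chosen, so their differences are given as a description, with no test. For Tnfrsf21 the difference of 1422740_at from 1450731_s_at averaged -1.51 (SD 0.39) over the 4 WT and -2.94 (SD 0.20) over the 5 null samples, a change of -1.43. For Tnfrsf10b the difference moved by 0.68, from -1.88 ± 0.28 to -1.20 ± 0.10 (SD, same samples). The genotypes did not overlap in either difference, which the choice of these genes makes likely. The fall of Tnfrsf10b was read on 1 of its probe sets, and each direction of Tnfrsf21 on 1. For Traf1 the difference moved by 0.88, but 1445452_at averaged 4.87 in WT and 4.99 in null samples, at the detection level of 5, where a fall could not be read, so the value gives no comparison of the probe sets. For Tnfrsf12a the difference moved by 0.20 (adjusted p = 0.286 over 5 pairs, exact permutation test, two-sided) and for Tnfrsf1b by -0.36 (adjusted p = 0.198, same exact test), and neither passed. In 4 of the 5 pairs, all but Traf1, the annotation gives both probe sets the same source transcript.

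**Figure D3:**
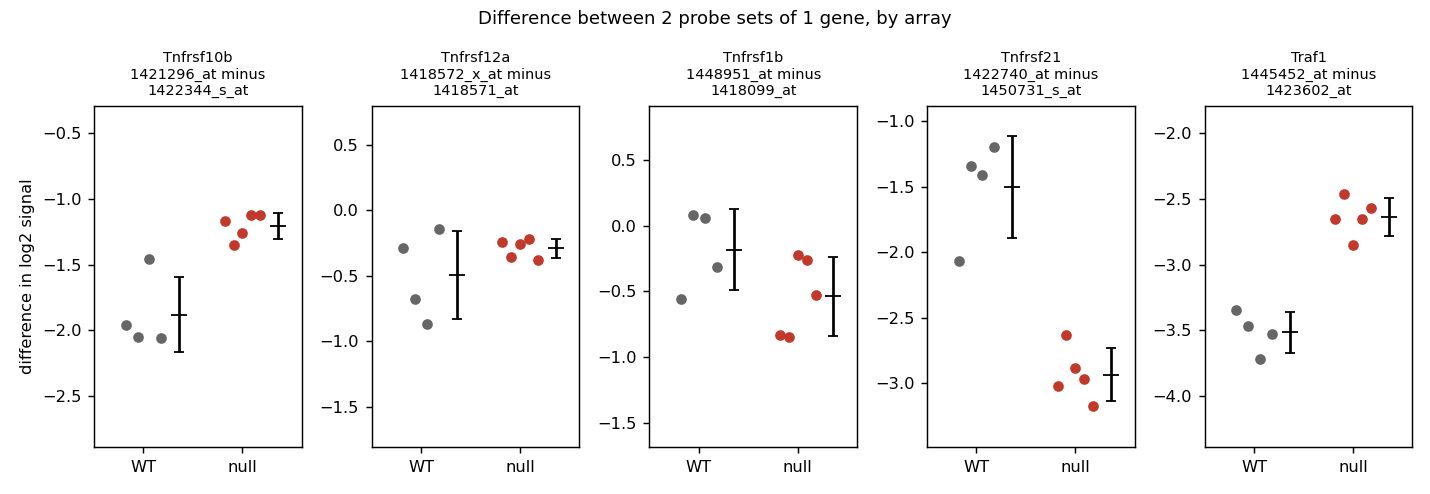
Difference in log2 signal between 2 probe sets of the same gene (y axis, with panels of equal span) in each WT (grey) and Tmem203 null (red) sample, for the 5 members with more than 1 detected probe set; bars give mean and SD. The genotypes are apart for Tnfrsf10b, Tnfrsf21 and Traf1 and overlap for Tnfrsf12a and Tnfrsf1b; for Traf1, 1 of the probe sets read at the detection level.

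The remaining genes of the pathway were read from 6 lists, taking for each gene the probe set of smallest p, by which 8.03% of all detected genes were higher and 6.82% lower at an adjusted p under 0.05, with a median log2 fold change of -0.03. Among 8 detected genes of other TNF superfamily ligands none passed, and the median was 0.00. Fasl, the ligand of FAS, had a log2 fold change of -0.30 (adjusted p = 0.0837 from limma). Another 5 ligand genes, among them Tnfsf11 and Lta, stayed under a log2 signal of 5 on all arrays. Among 13 detected genes of other receptors, 1 rose and 1 fell, with a median of -0.02. Eda2r, a receptor of ectodysplasin that p53 is known to induce, rose by 0.62 ± 0.11 (SE, adjusted p = 0.00959) and Edar, the other ectodysplasin receptor, fell by 0.39 ± 0.07 (SE, adjusted p = 0.0109).

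Of 15 detected genes of other TRAFs and their regulators 3 rose and 1 fell, with a median of 0.06. Tnfaip3, the ubiquitin-editing enzyme that restrains NF-kappa-B, rose by 0.47 ± 0.07 (SE, limma adjusted p = 0.00286). Traf6 rose by 0.33 (adjusted p = 0.0300) on 1 of 4 detected probe sets, and Tnip1, a partner of the Tnfaip3 protein, by 0.34 (adjusted p = 0.0358). The one that fell, named after its value was seen, was Traf3ip3, with -0.28 (adjusted p = 0.0441) to a null mean of 4.74. Leaving out any one array left 1 or 2 genes that rose, so the count of 3 rests on every array.

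Of 21 detected genes of death domain adaptors, caspases and their inhibitors 5 rose and 1 fell, with a median of 0.07. Casp8, the caspase that death receptors activate, rose by 0.68 ± 0.11 (SE, limma adjusted p = 0.00629). Xiap, an inhibitor of caspases, rose by 0.54 ± 0.07 (SE, adjusted p = 0.00138), while its other detected probe sets lay between -0.08 and 0.47 and did not pass. Further rises, named after their values were seen, were those of Cflar, which blocks caspase-8 at death receptors, with 0.58, of Birc3, a ubiquitin ligase bound to TRAF2, with 0.55, and of cytochrome c gene Cycs with 0.24. Mlkl, the executor of necroptosis, went from 9.37 (SD 0.12) in WT down to 8.13 (SD 0.11) in null samples, by -1.25 ± 0.08 (SE, adjusted p = 4.76e-05).

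Of 23 detected genes of NF-kappa-B and JNK signaling 3 rose and 2 fell, with a median of 0.05. Nfkbia, the inhibitor that NF-kappa-B itself induces, rose by 0.30 ± 0.06 (SE, limma adjusted p = 0.0105), with 0.28 to 0.36 on its 4 other probe sets, of which 3 passed. Jun, a target of JNK, rose by 0.60 ± 0.12 (SE, adjusted p = 0.0150), with 0.31 on a second probe set that did not pass. Mapk8, which encodes a JNK kinase, fell by 0.43 ± 0.06 (SE, adjusted p = 0.00210) on 1 probe set, with -0.00 to 0.11 on 4 others. Relb rose by 0.36 and Map3k5 fell by 0.33, both named after their values were seen. Without WT replicate 3 the list had 5 genes that rose and 1 that fell, and the fall count was also 1 without any other array except null replicate 4.

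Of 18 detected genes that TNF and NF-kappa-B are known to induce 6 rose and 1 fell, with a median of 0.31. Read from the probe set of highest mean instead, 3 rose and 1 fell. Mmp9, a matrix metalloproteinase, rose by 0.90 ± 0.10 (SE, limma adjusted p = 7.10e-04), with 0.30 on a probe set that did not pass. Gadd45b, a stress response gene, rose by 0.42 ± 0.08 (SE, adjusted p = 0.0116). The others that rose, named after their values were seen, were Socs3 with 0.59, Ier3 with 0.51, Cxcl1 with 0.39 and Lcn2 with 0.34. Ccl5, a chemokine, went from 7.66 (SD 0.38) in WT down to 5.70 (SD 0.31) in null samples, by -1.95 ± 0.19 (SE, adjusted p = 4.36e-04). Cxcl2, Il6, Ccl20, Ptgs2 and Plau were under 5 on all arrays. The per-array mean of the list was 7.85 to 8.04 in WT and 7.93 to 8.18 in null samples, which overlap, and null replicate 1 was the highest.

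**Figure D4:**
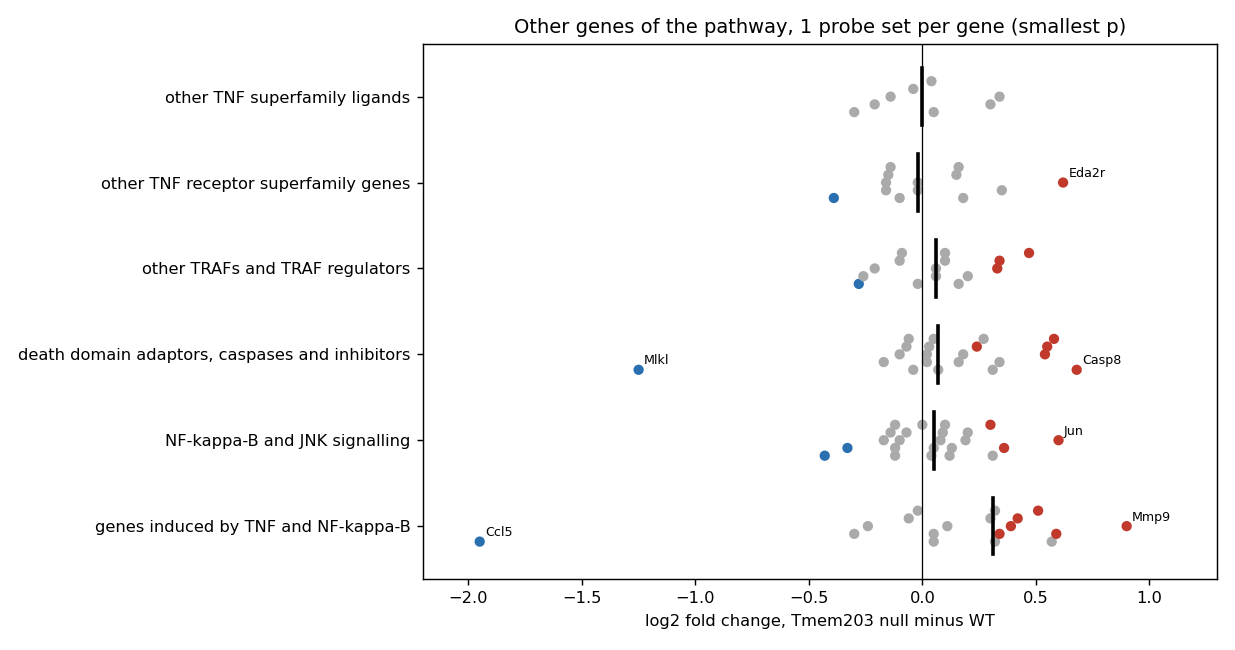
Each point is a detected gene of 1 of 6 pathway lists (rows), placed on the x axis by its log2 fold change in null relative to WT samples, through its probe set of smallest p. Genes past an adjusted p of 0.05 are red (higher) or blue (lower) and the rest grey, black bars are medians, and the named genes passed with a change of more than 1.5-fold; the median is 0.31 for genes that TNF and NF-kappa-B induce and between -0.02 and 0.07 for the other lists.

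The genes whose signal followed that of Tnfrsf12a most closely over the 9 arrays, among 29238 detected single-gene probe sets, were Celf2 (Pearson r = 0.992), Ywhah (0.991) and Bicc1 (0.991), with log2 fold changes of 0.37, 0.33 and 0.50. For Tnfrsf10b on 1422344_s_at they were Kansl1 (0.995), 1810062O18Rik (0.995) and Aars2 (0.994), with -0.80, -0.94 and -0.65. These values are a description over 2 separate groups of arrays, in which a shared difference between genotypes by itself gives a high r.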

How the data were processed

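Deposited were log2 signals, 1 for each probe set, of Affymetrix Mouse Genome arrays, 1 array per sample, which the authors made by RMA (background adjustment, quantile normalization and summarization) after a quality assessment, keeping all arrays. The submitters' processing notes name limma without a version, and the scans were not used here.

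Each probe set was tested between WT and null samples (limma 3.58.1, R 4.3.3, moderated statistics of eBayes), with Benjamini-Hochberg adjustment over 45037 probe sets; 64 Affymetrix controls stayed out. Calls used the thresholds of the methods, an adjusted p under 0.05, at least 1.5-fold, a signal of at least 32 (log2 of 5) on 1 or more arrays, and annotation to one gene. Symbols came from the platform annotation, of which 34741 of 34945 single-gene probe sets matched the RefSeq table (GRCm38.p6) by Entrez identifier; 932 probe sets had several genes and 9160 none. Exact permutation tests used SciPy 1.17.1 and Python 3.11.15. The procedure was checked on simulated data. Members, lists and tests were chosen with earlier results of these data known. Named genes were all members, up to 3 genes per list with the smallest p, the 3 most similar genes for Tnfrsf12a and Tnfrsf10b, and Tmem203; others are marked. Alternatives covered centring, the filter, the variance model, array weights, shared-probe sets, the replicate block, each array left out, a 2-fold threshold and the choice of probe set. Same-numbered null and WT samples did not deviate together. Precision is limited by the number of arrays.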

Additional observations from a re-analysis of the deposited data

Results flagged for a closer look

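One array stood apart from the rest of its genotype in 4 of 28 groups of member values, by the ratio of its gap to the range of the group. Chance alone does this in about 1 of 20 groups of independent, normally distributed values. The 28 groups share the same arrays, so this rate is only a rough guide. On 1418572_x_at of Tnfrsf12a, WT replicate 4 read 7.0, where the rest of WT read 6.92 to 6.93 (ratio 0.88), a gap that is small beside the difference between genotypes. On 1421296_at of Tnfrsf10b, null replicate 2 was at 7.28 and all other null samples at 7.35 (ratio 1.0), a ratio that rests on their nearly equal values. On 1439680_at of Tnfsf10, WT replicate 3 was at 5.44 and the others between 5.05 and 5.10 (ratio 0.89). On 1445452_at of Traf1, null replicate 2 was at 5.41 and the others between 4.80 and 4.97 (ratio 0.72). None of these 4 probe sets except that of Tnfrsf12a passed the test between genotypes.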

How the results depend on the processing

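Both probe sets of Tnfrsf12a, 1422344_s_at of Tnfrsf10b, 1450731_s_at of Tnfrsf21 and 1423602_at of Traf1 kept their direction and an adjusted p under 0.05 in every alternative that held them, 14 or 15 each. With any array left out, 2 member genes were called higher and 2 to 3 lower, and 3 to 4 member probe sets passed higher and 3 lower. Without probe sets of suffix _s_at or _x_at, 1 member gene was called higher and 2 lower, and 2 probe sets passed higher and 2 lower. That setting drops 1422344_s_at, on which Tnfrsf10b fell, and 1450731_s_at, on which Tnfrsf21 rose. At 2-fold 1 gene was higher and 0 were lower. Both settings reduce the counts by construction. A few probe sets that passed nowhere changed sign near 0, 1448951_at of Tnfrsf1b to 0.01 with array weights, and 1421296_at of Tnfrsf10b to 0.01 and 1439680_at of Tnfsf10 to 0.02 without WT replicate 3; with an array left out they ranged from -0.16 to 0.01 (Tnfrsf10b) and from -0.11 to 0.02 (Tnfsf10). The differences between probe sets ranged from 0.62 to 0.82 for Tnfrsf10b, from -1.62 to -1.33 for Tnfrsf21 and from 0.81 to 0.94 for Traf1 with an array left out; those of Tnfrsf12a (0.08 to 0.32) and Tnfrsf1b (-0.48 to -0.27) passed nowhere.

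Counts of the lists were less stable. With an array left out, the ligands had 0 higher and 0 to 1 lower, the other receptors 1 to 2 higher and 1 lower, the TRAF list 1 to 2 higher and 0 to 2 lower, the death domain list 4 to 6 higher and 1 lower, the NF-kappa-B and JNK list 2 to 5 higher and 1 to 2 lower, and the induced genes 4 to 7 higher and 1 lower. Median centring gave 1 lower ligand and 2 lower death domain genes, and filtering before the fit 2 lower death domain genes. The trended robust variance gave 0 lower in the TRAF list. Array weights gave 2 lower in the TRAF list, 2 lower in the death domain list and 5 higher in the NF-kappa-B and JNK list. With the probe set of highest mean, the NF-kappa-B and JNK list had 1 lower and the induced genes 3 higher. The causes were not tested.

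The replicate numbers were not taken as pairs, since the deviations of same-numbered samples correlated between -0.06 and 0.08, and 1 of 4 correlated best with its own number. With the replicate block, Tnfrsf1a (adjusted p = 0.142) and 1422740_at of Tnfrsf21 (0.0998) did not pass; the receptors had 0 lower, the TRAF list 1 higher and 0 lower, the death domain list 2 higher, the NF-kappa-B and JNK list 1 higher and 1 lower, and the induced genes 2 higher.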
